A study of Homo sapiens with 26 samples.

Results

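Chromatin regulators were followed, as a set of 10 genes, in bulk mRNA sequencing of 2 human B cell lymphoma lines. The set holds EZH1, EZH2, KMT2D, CREBBP, EP300, ARID1A, CHD1, KDM1A, DNMT1 and TET2, 10 of the 58592 genes that could be matched to the deposited transcript table. They were listed by name as regulators reported as mutated or altered in B cell lymphoma, and the files give RNA levels only and no mutation calls.

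These proteins write, remove or read marks on histones and DNA, or move nucleosomes. EZH2 and EZH1 are the alternative catalytic subunits of PRC2, which places a repressive methyl mark on histone H3, and EZH2 is the form known for its role in germinal centre B cells. KMT2D, CREBBP and EP300 act the other way at enhancers, by methylating or acetylating histones, and DNMT1 and TET2 maintain and remove methyl groups on DNA.

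The series asked which genes move when POU2F2 or POU2AF1 is repressed. POU2F2 encodes OCT2, a transcription factor that binds the octamer sequence, and POU2AF1 encodes OCA-B, a B cell coactivator recruited by octamer factors. OCI-Ly7 and SUDHL4 (SU-DHL-4) are established cell lines from diffuse large B cell lymphoma with a germinal centre phenotype. All groups, controls included, carried a catalytically dead Cas9 fused to BFP and the KRAB repressor domain, driven by the SFFV promoter and delivered by lentivirus, and each then received a guide construct against POU2AF1, against POU2F2 or without a target. OCI-Ly7 was grown in an IMDM-based medium and SUDHL4 in an RPMI-based one, so that line and medium cannot be told apart. Merging of repeated files gave, for OCI-Ly7, 4 libraries with control guides, 6 with POU2AF1 guides and 8 with POU2F2 guides, and for SUDHL4 1, 1 and 2 in that order. A time of 48 h is marked for OCI-Ly7 POU2AF1 knockdown replicate 3, POU2F2 knockdown replicate 3 and the control file that repeats the sum of the 2 files merged as control replicate 1, and the time of the other knockdown libraries is not given in the sources used here. Nothing in the labels says that replicates are separate cultures, and the p-values then cover only differences among these libraries, which may be technical.

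The 26 files held 24959865 to 53155548 estimated reads each. POU2AF1 was at 448 to 479 CPM (library-scaled counts after TMM normalisation) in the OCI-Ly7 controls and 27.8 to 89.5 CPM in the POU2AF1 knockdown, and POU2F2 was at 211 to 410 CPM in the controls and 56.5 to 150 CPM in the POU2F2 knockdown. In SUDHL4 POU2AF1 was at 406 and 74.1 CPM, and POU2F2 at 303 and 40.6 to 52.1 CPM. The 4 B cell markers MS4A1, CD79A, CD79B and PAX5 were all above 1 CPM in every group, and of 5 germinal centre markers 5 were above 1 CPM in the SUDHL4 groups and 3 in those of OCI-Ly7. The 6 T and NK cell markers summed to 0.82 to 3.36 CPM and the 6 myeloid markers to 0.42 to 2.42 CPM over all libraries. OCI-Ly7 POU2AF1 knockdown replicate 1 stood apart, in that mitochondrial genes took 25.8% of its reads and 7.04% to 14.0% of those of any other library. Batch 2 of OCI-Ly7 carries series marks (s0 to s3) in the labels, and libraries with the same mark deviated together, so a comparison within series is given where it changes a call. POU2F2 knockdown replicate 3, labelled batch 2 without a mark, had deviations from its group mean that correlated at 0.78 with those of the batch 1 control and at 0.06, -0.48 and -0.52 with those of the batch 2 controls.

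On the per-length scale of TPM, the deposited abundance of transcripts, the 10 genes spanned several orders of magnitude. DNMT1, the maintenance DNA methyltransferase, was highest in the OCI-Ly7 controls, at 281, 328, 341 and 350 TPM. KDM1A, a histone demethylase of the CoREST complex, followed with 71.0 ± 6.1 TPM (SD, n = 4), then EZH2 with 70.2 ± 7.7 TPM, and these neighbours overlapped. ARID1A, a DNA-binding subunit of SWI/SNF remodellers, was at 59.6 ± 2.8 TPM and KMT2D at 58.5 ± 4.5 TPM, again overlapping with each other. CREBBP and EP300 were lower, at 38.8 ± 3.2 and 36.7 ± 2.8 TPM, and could not be ordered within their spread. EZH1, at 40.5 ± 17 TPM, had no fixed place. It lay below both in control replicates 1 and 7, at 26.9 and 25.1 TPM. In replicates 8 and 9 it lay above both, at 52.1 and 57.7 TPM, and in replicate 9 also above ARID1A and KMT2D. CHD1, a chromodomain remodeller found at transcribed genes, was far lower, at 3.04, 2.98, 3.91 and 2.81 TPM. TET2, which oxidises methylated cytosine, was lowest, at 0.00869, 0.0482, 0.0302 and 0.0522 TPM from 3, 2, 6 and 10 estimated reads, which is close to the limit of detection at this depth.

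The SUDHL4 control had the same gene at either end, DNMT1 at 284 TPM and TET2 at 0.516 TPM. KDM1A at 91.0 TPM and EZH2 at 78.8 TPM came next, and EZH1 at 31.6, EP300 at 28.9 and CREBBP at 27.1 TPM stood close together above CHD1 at 17.9 TPM. CHD1 and TET2 therefore separated the lines most. CHD1 was at 56.0 CPM in the SUDHL4 control and 6.95 to 8.24 CPM in the OCI-Ly7 controls, a log2 difference (OCI-Ly7 minus SUDHL4) of -2.83 ± 0.37 with all 22 libraries fitted together (edgeR adjusted p = 9.38e-06). TET2 was at 3.41 CPM against 0.0572 to 0.332 CPM, a difference of -4.76 ± 0.89 (edgeR adjusted p = 0.000512). KDM1A was at 208 CPM against 135 to 179 CPM, a difference of -0.84 ± 0.17 (edgeR adjusted p = 0.00136). These 3 of the 10 passed the test, all higher in SUDHL4, where 12.5% of 18918 genes were higher in SUDHL4 and 11.0% in OCI-Ly7. The other 7 had differences between -0.39 and 0.38. SUDHL4 had 1 control library, so its spread is taken from the other groups, and within batch 1, with 1 control of either line, the CHD1 value was -3.11, that of TET2 -5.96 and that of KDM1A -0.75.

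**Figure D1:**
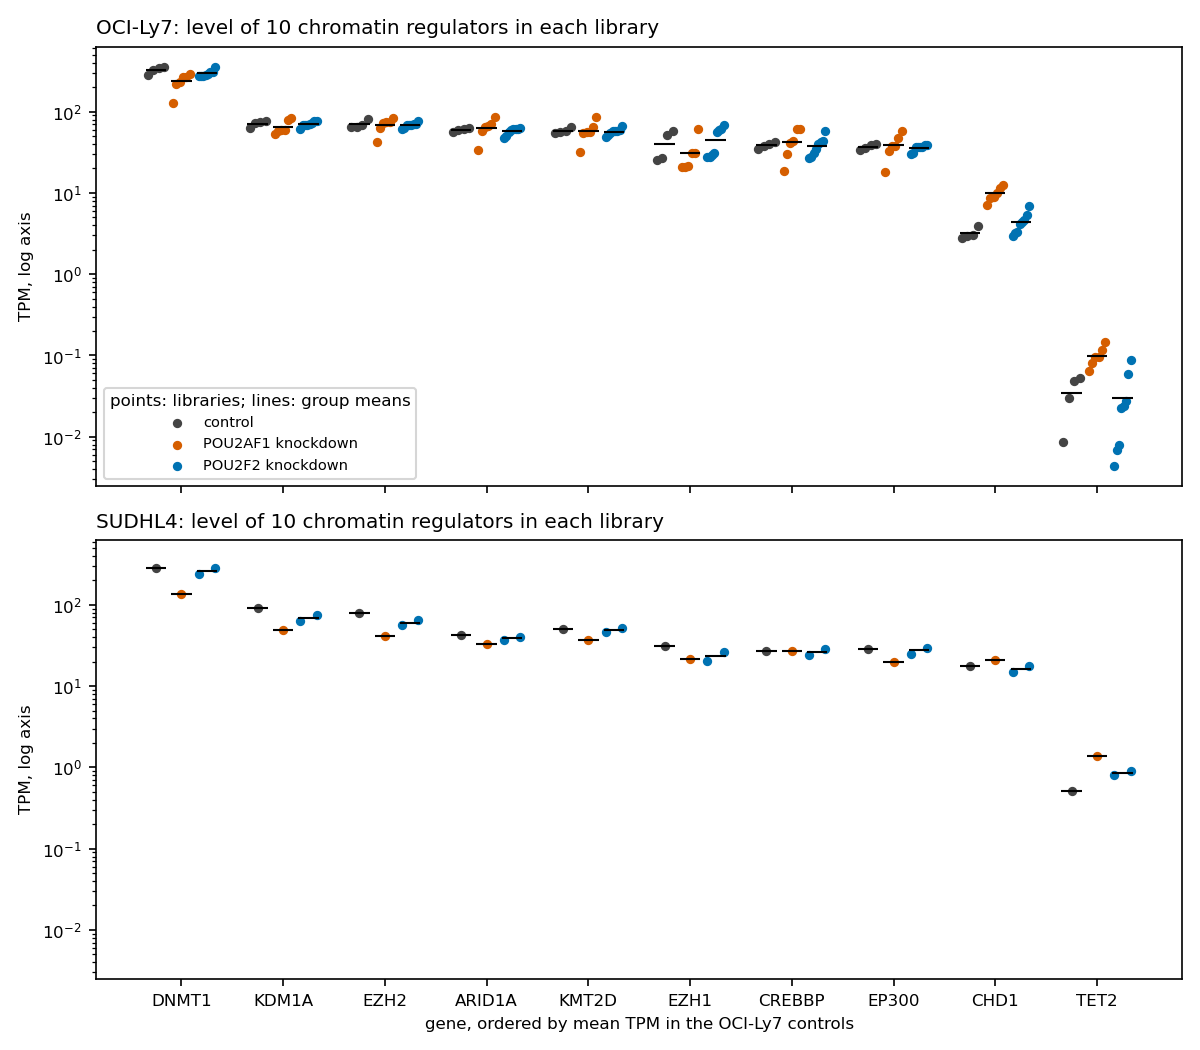
TPM of the 10 genes (log axis) in each library of OCI-Ly7 (top) and SUDHL4 (bottom), by condition, with points for libraries and lines for group means. DNMT1 was highest and TET2 lowest in both lines, CHD1 was near 3.19 TPM in the OCI-Ly7 controls and at 17.9 TPM in the SUDHL4 control, and the lowest DNMT1 point of OCI-Ly7 is POU2AF1 knockdown replicate 1 at 128 TPM.

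In OCI-Ly7, CHD1 rose after POU2AF1 knockdown and none of the other 9 genes was called. The batch 1 control held 7.09 CPM of CHD1, and the 3 batch 2 controls 6.95, 8.03 and 8.24 CPM. In the POU2AF1 knockdown the batch 1 libraries held 31.4, 30.5, 27.2 and 25.4 CPM and the batch 2 libraries 25.7 and 15.7 CPM. All 6 knockdown libraries thus lay above all 4 controls, with group means of 26.0 ± 5.6 CPM (SD, n = 6) and 7.58 ± 0.65 CPM (SD, n = 4). How many of all genes lie apart in this way is not given here. Such statements, here and below, therefore only describe these libraries. The rise was 1.65 ± 0.25 on the log2 scale (fitted value ± standard error; edgeR adjusted p = 0.00208). CHD1 was the 1 gene of the 10 to pass, where 0.887% of 16001 genes did, 0.281% higher and 0.606% lower. Within series the log2 change was 1.71 (edgeR adjusted p = 1.1e-05). With batch 1 alone it was 2.02 (edgeR adjusted p = 0.0366), with batch 2 alone 1.44 (edgeR adjusted p = 0.244), and without control replicate 1, the sole control of batch 1, it was 1.44 with no call (edgeR adjusted p = 0.104).

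The start of CHD1 (ENSG00000153922, chromosome 5, 98853985 to 98928957 on GRCh38, minus strand) was examined because CHD1 moved with the loss of an octamer coactivator. The 250 bases before its RefSeq start are shown 5′ to 3′ on the gene's strand. Those of TET2 (ENSG00000168769, chromosome 4, 105145875 to 105279816, plus strand) follow. TET2, like CHD1, lay above all controls in the OCI-Ly7 POU2AF1 knockdown. Those of KDM1A (ENSG00000004487, chromosome 1, 23019443 to 23083689, plus strand) come last, as they held the first 7 letters of the octamer. Capitals mark the first 7 letters of the octamer, ATGCAAA, or its reverse complement.
CHD1 (GRCh38.p14, chr5:98929008-98929257, minus strand): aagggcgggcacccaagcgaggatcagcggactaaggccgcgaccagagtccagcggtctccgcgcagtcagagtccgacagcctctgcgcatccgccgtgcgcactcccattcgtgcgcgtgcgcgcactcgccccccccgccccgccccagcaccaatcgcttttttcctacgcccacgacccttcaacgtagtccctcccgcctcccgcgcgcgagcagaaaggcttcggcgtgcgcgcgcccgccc
TET2 (GRCh38.p14, chr4:105145625-105145874, plus strand): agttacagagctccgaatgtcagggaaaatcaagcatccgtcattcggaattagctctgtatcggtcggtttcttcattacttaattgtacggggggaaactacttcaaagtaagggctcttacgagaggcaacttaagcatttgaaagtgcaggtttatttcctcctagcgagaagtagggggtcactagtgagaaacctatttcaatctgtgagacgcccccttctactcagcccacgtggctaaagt
KDM1A (GRCh38.p14, chr1:23019218-23019467, plus strand): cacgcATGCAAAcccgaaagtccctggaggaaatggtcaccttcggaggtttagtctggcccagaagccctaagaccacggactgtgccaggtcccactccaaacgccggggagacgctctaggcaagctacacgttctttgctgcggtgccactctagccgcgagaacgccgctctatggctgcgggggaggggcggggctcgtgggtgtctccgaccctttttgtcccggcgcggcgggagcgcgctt
All 10 genes matched the RefSeq promoter table, with 13 starts. The full octamer ATGCAAAT, searched on both strands, was in none of the 13 promoters of 300 bases (250 before and 50 after the start) and in 1.77% of 35116 promoters of that length. The first 7 letters, which the octamer contains, were in 1, that of KDM1A, and in 4.46% of all. The CHD1 promoter held 44 CpG dinucleotides and the TET2 promoter printed here 13, against a median of 14, while the second RefSeq start of TET2 held 35. A match describes letters only, and no binding was measured here.

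TET2 also lay higher in every OCI-Ly7 POU2AF1 knockdown library than in every control, but on very few reads. The 6 knockdown libraries held 32, 41, 25, 19, 24 and 16 estimated TET2 reads, against 3, 2, 6 and 10 in the controls, or 0.428 to 0.875 CPM (median 0.632) against 0.0572 to 0.332 CPM. The fitted log2 value was 2.19 ± 0.71 and was not called (edgeR adjusted p = 0.259). Within series it was 2.67 and was called (edgeR adjusted p = 0.00412), where 2.49% of genes were called higher and 3.09% lower.

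DNMT1 lay lower in all 6 POU2AF1 knockdown libraries than in all 4 controls of OCI-Ly7. The controls held 802, 937, 871 and 931 CPM, and the knockdown ranged from 520 to 720 CPM with a median of 670 CPM. The log2 value of -0.38 ± 0.10 did not pass (edgeR adjusted p = 0.0971). Within series it was -0.37 and passed (edgeR adjusted p = 0.00819), and DESeq2 with the batch term also called it (adjusted p = 0.00263). The lowest value, 520 CPM, was that of the library with 25.8% mitochondrial reads; within series without that library the value was -0.33 (edgeR adjusted p = 0.00022).

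The other 7 genes had log2 values between -0.06 and 0.13 after POU2AF1 knockdown of OCI-Ly7, none of them called. EZH2 was at 105 to 136 CPM (median 133) against 121, 165, 120 and 124 CPM in the controls. KDM1A was at 120 to 191 CPM (median 146) against 135, 179, 155 and 153 CPM. Both ranges overlapped those of the controls widely. The long genes KMT2D, CREBBP, EP300 and ARID1A varied together from library to library. Replicate 2 held the highest values of its group, with 495 CPM of KMT2D, 281 of CREBBP, 309 of EP300 and 421 of ARID1A, and replicate 1 the lowest, with 261, 133, 160 and 261 CPM. In replicate 2 the median of 1152 genes longer than 6000 bases was 0.19 log2 units above the mean of the line and that of 1550 genes shorter than 1500 bases was -0.16, and the part of this in the 4 genes' values was not tested. In replicate 1 the medians were 0.01 and -0.01. The read-weighted length was 18488 bases for KMT2D, 8825 for CREBBP, 8696 for EP300 and 7546 for ARID1A.

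POU2F2 knockdown of OCI-Ly7 gave no call for any of the 10 genes, nor for any of the 16001 tested (0% by edgeR, although 283 had an unadjusted p under 0.05; 5 by DESeq2). All 8 libraries are labelled batch 2, while 1 of the 4 controls is of batch 1. The fitted values therefore also rest on a batch difference taken from the other groups. CHD1 was at 8.07 to 19.5 CPM (median 9.85) in the 8 libraries, 7 of them above all controls. Its log2 value was 0.60 ± 0.22 (edgeR adjusted p = 1). DNMT1 was at 703 to 828 CPM (median 757), with 7 of 8 libraries below all controls, and a log2 value of -0.27 ± 0.09 (edgeR adjusted p = 1). All 8 lay below the 3 controls of batch 2. TET2 was at 0.0304 to 0.392 CPM from 1 to 11 reads, which overlapped the controls, with a log2 value of -0.14 ± 0.63. The remaining 7 had values between -0.08 and 0.04.

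Side by side within a series mark, the libraries showed the same order. In s0 the control held 6.95 CPM of CHD1, the POU2AF1 knockdown 25.7 CPM and the 3 POU2F2 knockdown libraries 10.4, 9.71 and 9.26 CPM. In s2 the values were 8.03 CPM in the control, 15.7 CPM after POU2AF1 knockdown and 9.08 and 10.0 CPM after POU2F2 knockdown. In s3, which has no POU2AF1 knockdown library, they were 8.24 CPM and 12.4 CPM. CHD1 was therefore highest after POU2AF1 knockdown and lowest in the control in each mark that held both. DNMT1 in s0 was at 937 CPM in the control, 720 CPM after POU2AF1 knockdown and 731, 783 and 783 CPM after POU2F2 knockdown. In s2 it was at 871, 669 and then 717 and 703 CPM, and in s3 at 931 and 789 CPM. Every knockdown library was below the control of its mark. The highest CHD1 value of the POU2F2 knockdown, 19.5 CPM, came from the sole s1 library, which has no control of its mark.

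Set directly against each other in OCI-Ly7, the 2 knockdowns differed in CHD1 by -1.05 ± 0.24 on the log2 scale (POU2F2 minus POU2AF1), which was not called (edgeR adjusted p = 0.126), in a comparison where 0.162% of genes were. Within series the difference was -1.20 and was called (edgeR adjusted p = 0.000814), with 0.406% of genes called lower, and DESeq2 called it as well (adjusted p = 0.00638). Within series, a library alone in its mark has no weight. This holds for POU2F2 knockdown replicate 1, the highest of its group for CHD1 at 19.5 CPM, and for replicate 3, without a mark. Without replicate 1 in the fit with the batch term the call was also made, at -1.21 (edgeR adjusted p = 0.00493). Both of these edgeR calls thus set replicate 1 aside, while the DESeq2 call kept it. TET2 differed by -2.32 ± 0.65 (edgeR adjusted p = 0.364) and within series by -2.75 (edgeR adjusted p = 0.00887). These comparisons share the POU2AF1 knockdown libraries with the comparison to control.

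**Figure D2:**
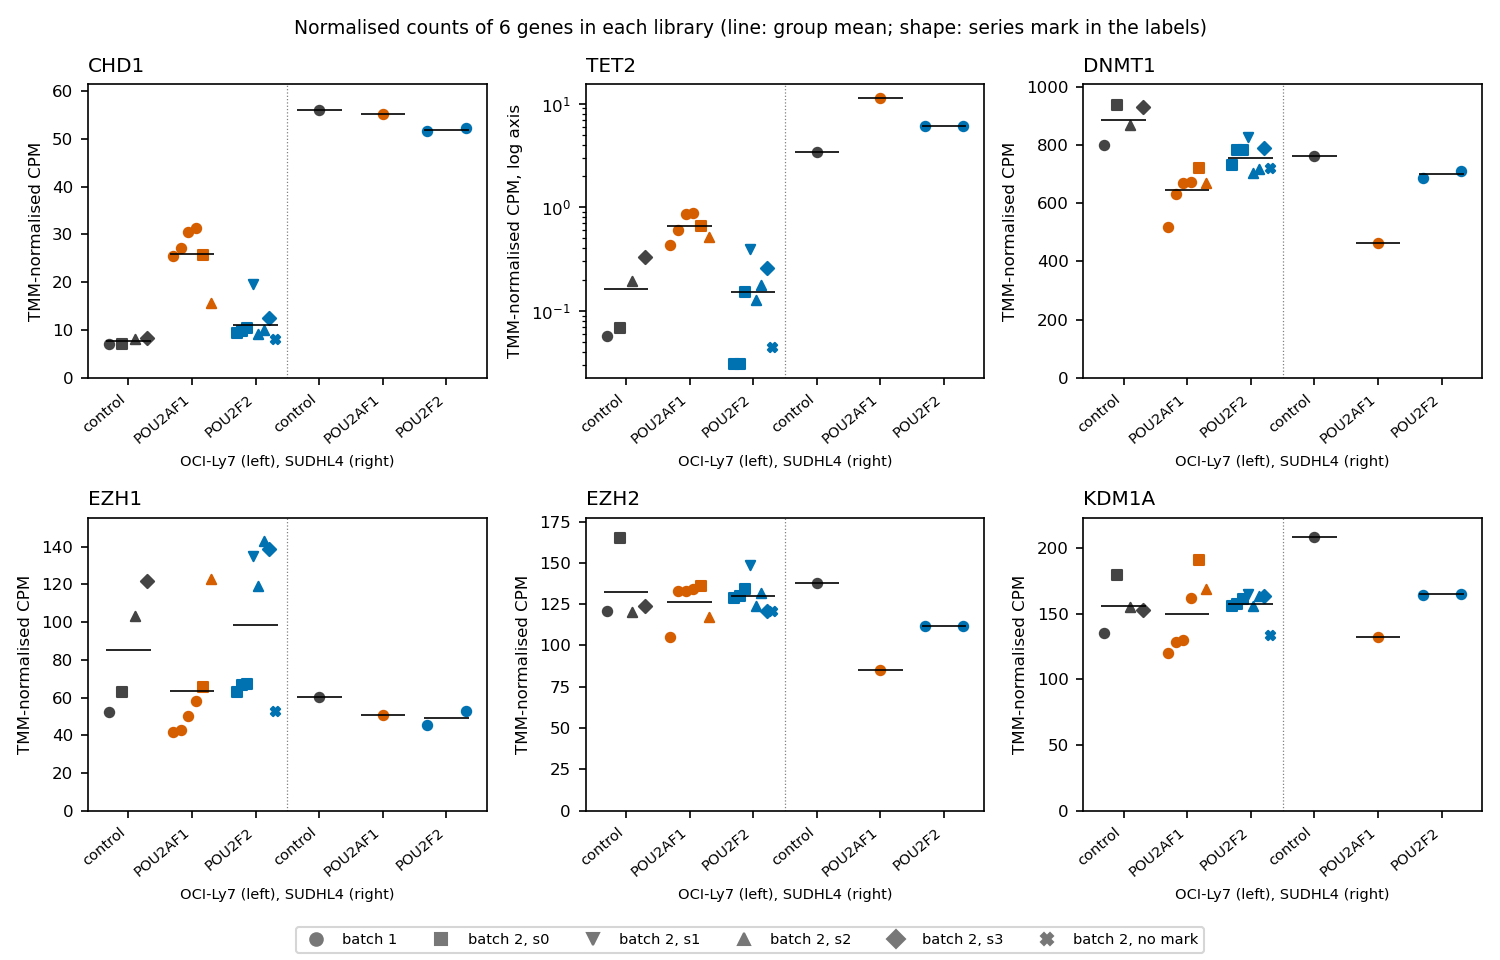
TMM-normalised CPM of 6 genes in each library, by knockdown, with OCI-Ly7 left and SUDHL4 right of the dotted line, shapes for the batch and series marks, and lines for group means (the TET2 axis is a log axis, the others start at 0). All 6 OCI-Ly7 POU2AF1 knockdown libraries lie above the controls for CHD1 and TET2 and below them for DNMT1, and EZH1 separates by series mark. The share of all genes that lie apart from the controls in this way is not given here.

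EZH1, the PRC2 subunit more typical of resting cells, differed between OCI-Ly7 libraries by series mark. It was at 41.8 to 58.1 CPM in the 5 batch 1 libraries, 62.9 to 67.4 CPM in the 5 libraries of s0 and 52.8 CPM in the library without a mark. It was at 135 CPM in s1, 103 to 143 CPM in the 4 libraries of s2 and 122 to 139 CPM in the 2 of s3, so that the libraries of s1, s2 and s3 all lay above the other libraries of the line. Both kinds of library occur in all 3 conditions: the controls held 52.2, 62.9, 103 and 122 CPM. The log2 value was -0.06 ± 0.32 after POU2AF1 knockdown and 0.02 ± 0.29 after POU2F2 knockdown, and neither was called. EZH2, by contrast, spanned 105 to 165 CPM over all marks of OCI-Ly7.

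In SUDHL4 more of the genes passed the test, in a line where far more genes did. After POU2AF1 knockdown, 6 of the 10 were called, 5 lower and 1 higher, and 36.8% of 16973 genes were, 18.8% lower and 18.0% higher. The control and the POU2AF1 knockdown were 1 library each, and the spread comes from the 2 POU2F2 knockdown libraries alone, with 1 residual degree of freedom. With the 22 libraries of both lines fitted together, which draws the spread mainly from OCI-Ly7, none of these 6 calls was kept, and 1.66% of 18918 genes were called.

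The SUDHL4 genes that were lower after POU2AF1 knockdown were DNMT1, EZH2, KDM1A, KMT2D and EP300. DNMT1 was at 763 CPM in the control, 464 CPM after POU2AF1 knockdown and 711 and 687 CPM after POU2F2 knockdown. Its log2 change after POU2AF1 knockdown was -0.72 ± 0.13 (edgeR adjusted p = 5.28e-05; with both lines fitted together, 0.0616). EZH2 was at 138 CPM in the control, 85.2 CPM after POU2AF1 knockdown and 112 CPM in both POU2F2 knockdown libraries. The EZH2 change was -0.70 ± 0.10 (edgeR adjusted p = 2e-06; with both lines fitted together, 0.137). KDM1A was at 208 CPM, 132 CPM and, after POU2F2 knockdown, 164 and 165 CPM. Its change was -0.65 ± 0.11 (edgeR adjusted p = 1.21e-05; with both lines fitted together, 0.124). In these 3 genes both POU2F2 knockdown libraries lay between the control and the POU2AF1 knockdown. KMT2D fell by 0.32 log2 units (edgeR adjusted p = 0.034; with both lines fitted together, 0.748), from 332 to 267 CPM, with 327 and 335 CPM after POU2F2 knockdown. EP300 fell by 0.29 log2 units (edgeR adjusted p = 0.0366; with both lines fitted together, 0.805), from 164 to 134 CPM, with 170 CPM in both POU2F2 knockdown libraries. With counts rebuilt from TPM, which rescales for transcript length, neither was called, at -0.17 for KMT2D (edgeR adjusted p = 0.36) and -0.27 for EP300 (edgeR adjusted p = 0.132). The median of 1084 genes longer than 6000 bases was -0.13 log2 units from the mean of the line in the POU2AF1 knockdown, 0.06 in the control and 0.04 in both POU2F2 knockdown libraries, and its part in these values was not tested.

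TET2 was the 1 gene of the set called higher than the control in the fit of the SUDHL4 counts. Its level was 3.41 CPM in the control (179 estimated reads), 11.4 CPM after POU2AF1 knockdown (647 reads) and 6.15 and 6.05 CPM after POU2F2 knockdown (298 and 278 reads). The log2 change was 1.74 ± 0.22 after POU2AF1 knockdown (edgeR adjusted p = 9.71e-08; with both lines fitted together, 0.556). Myeloid markers, of which none was above 1 CPM in any SUDHL4 group, summed to 0.42 CPM in the control, 1.25 CPM after POU2AF1 knockdown and 0.849 to 0.929 CPM after POU2F2 knockdown, with MPO at 0 in all of them and LYZ at 0 in the control. T and NK cell markers summed to 1.16, 3.28 and 2.39 to 2.59 CPM, with CD3D at 0 in all. Their part in the TET2 values was not tested.

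CHD1, the gene that rose in OCI-Ly7, was at 56.0 CPM in the SUDHL4 control, 55.2 CPM after POU2AF1 knockdown and 51.6 and 52.3 CPM after POU2F2 knockdown, with a log2 value of -0.02 ± 0.10 after POU2AF1 knockdown (edgeR adjusted p = 0.901). This value depended on how reads were scaled for transcript length: with counts rebuilt from TPM it was 0.52 (edgeR adjusted p = 0.00855). The short CHD1-209 transcript (848 bases, annotated for nonsense-mediated decay) took 4.17% of the gene's TPM in the control, 17.2% after POU2AF1 knockdown and 14.0% on average after POU2F2 knockdown, while the leading coding transcript CHD1-201 took 42.1%, 28.0% and 39.0%. EZH1 (60.1, 50.9, 45.5 and 52.7 CPM), CREBBP (145, 169, 154 and 143 CPM) and ARID1A (241, 216, 244 and 236 CPM, each in the order control, POU2AF1 knockdown and the 2 POU2F2 knockdown libraries) were not called.

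After POU2F2 knockdown of SUDHL4, 3 of the 10 genes were called, against 7.35% of all genes (4.79% higher and 2.56% lower), and none of the 3 with both lines fitted together, where 0.0951% of genes were and each of the 3 had an edgeR adjusted p of 1. EZH2 fell by 0.30 log2 units (edgeR adjusted p = 0.0302) and KDM1A by 0.34 (edgeR adjusted p = 0.0172), and TET2 rose by 0.84 (edgeR adjusted p = 0.00573). Between the knockdowns, EZH2, KDM1A, DNMT1, KMT2D and EP300 were higher and TET2 lower after POU2F2 knockdown, 6 of 10 where 26.2% of genes were called, 13.8% higher and 12.4% lower. The DNMT1 difference was 0.59 ± 0.12 (edgeR adjusted p = 0.00022) and that of TET2 -0.90 ± 0.18 (edgeR adjusted p = 0.000193), or 0.246 and 1 with both lines fitted together. None of these 6 differences was called there, where 0.196% of genes were.

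**Figure D3:**
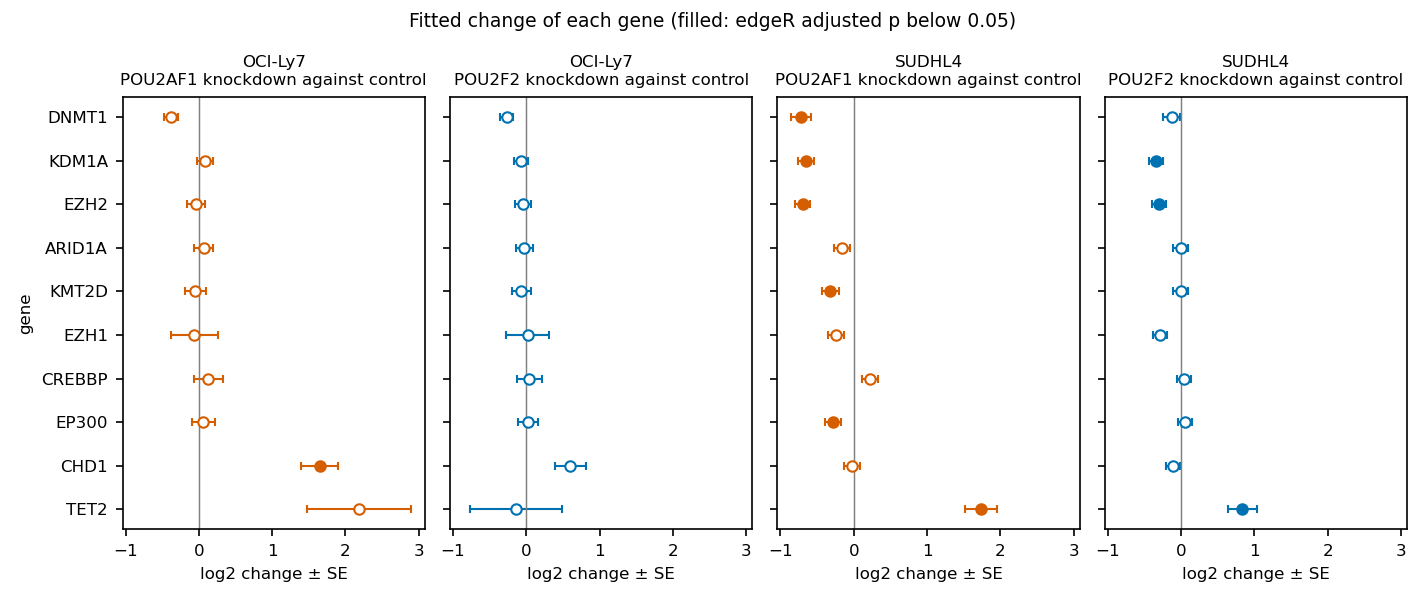
Fitted log2 change of the 10 genes (x axis, ± standard error) against the control of the same line, for both knockdowns in OCI-Ly7 and SUDHL4, with filled points for an edgeR adjusted p below 0.05. In OCI-Ly7 the sole filled point is CHD1 at 1.65, and in SUDHL4 DNMT1, EZH2, KDM1A, KMT2D and EP300 are lower and TET2 higher after POU2AF1 knockdown.

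Genes of S phase and mitosis moved in the same SUDHL4 libraries. The 17 listed genes summed to 5690 CPM in the control, 3140 CPM after POU2AF1 knockdown and 4970 to 5120 CPM after POU2F2 knockdown, and all 17 were called lower after POU2AF1 knockdown, where 18.8% of all genes were, with a median log2 change of -0.87 beside 0.01 over all genes. With both lines fitted together 3 of the 17 were called lower, where 1.66% of all genes were called in either direction. In OCI-Ly7 they summed to 6230 to 8190 CPM in the controls and 5780 to 7230 CPM after POU2AF1 knockdown, with none called and a median of -0.12. DNMT1 and EZH2 are both known to be expressed with DNA replication, and the part of these genes in the values of DNMT1 and EZH2 was not tested. In bulk RNA, fewer cells in a phase and less RNA per cell cannot be told apart. Marker genes moved in both lines. In OCI-Ly7, 2 of the 3 germinal centre markers tested were called lower after POU2AF1 knockdown, where 0.606% of all genes were. Their median log2 change was -1.4. None of the 4 B cell markers was called there. The 4 B cell markers summed to 1590 CPM in the SUDHL4 control and 4240 CPM after POU2AF1 knockdown, all 4 called higher, and the germinal centre markers to 1190 and 565 CPM, with 4 called lower and 1 higher, where 18.0% of all genes were called higher and 18.8% lower. With both lines fitted together 1 B cell marker was called higher and 1 germinal centre marker lower.

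Whether a knockdown acted differently in the lines was tested as the difference of the 2 effects in the fit of all libraries. In SUDHL4 the POU2AF1 effect is 1 knockdown library against 1 control, so the spread comes mainly from OCI-Ly7, also within series. The difference was not fitted on counts rebuilt from TPM, on which the SUDHL4 value of CHD1 changed. For POU2AF1 the difference (OCI-Ly7 minus SUDHL4) was 1.68 ± 0.50 for CHD1 (edgeR adjusted p = 0.145), 0.75 ± 0.23 for KDM1A (edgeR adjusted p = 0.166) and 0.67 ± 0.26 for EZH2 (edgeR adjusted p = 0.314). None of the 10 passed, where 0.798% of genes did. Within series all 3 passed, CHD1 at 1.74 (edgeR adjusted p = 0.00108), KDM1A at 0.74 (edgeR adjusted p = 0.0174) and EZH2 at 0.65 (edgeR adjusted p = 0.0428), all above 0, where 5.02% of genes passed in that direction. For POU2F2 none of the 10 passed in either fit, with 0.0106% of genes called with the batch term and 0.222% within series.

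Reads were also split by Salmon between the transcripts of a gene. In the OCI-Ly7 controls EP300-201 took 82.6% of the TPM of EP300 and KDM1A-201 took 66.6% of that of KDM1A, so that 1 coding transcript led. EZH1 was shared between the coding EZH1-202, with 37.2%, and EZH1-210, a retained intron of 594 bases, with 36.1%. KMT2D was shared between the full-length KMT2D-201 (19419 bases), with 37.5%, and the fragment KMT2D-202 (859 bases), with 39.4%. These are shares of TPM, on which short transcripts weigh more than on reads. By estimated reads, coding transcripts held 80.0% to 81.6% of EZH1 in the OCI-Ly7 controls. The share of a gene's TPM in protein-coding transcripts was compared between knockdown and control in OCI-Ly7 by exact two-sided permutation over libraries, for POU2AF1 within batch and for POU2F2 in batch 2. For CHD1 it was 55.3% ± 7.1 (SD, n = 6) after POU2AF1 knockdown and 53.4% ± 14.0 (SD, n = 4) in the controls (exact permutation p = 0.9). For DNMT1 it was 60.0% ± 6.2 and 56.4% ± 7.0, with a within-batch difference of -0.78 points (exact permutation p = 0.8). Of the 20 tests none had an unadjusted p below 0.05, the lowest being 0.24 and all adjusted p 0.963 or more; the design allows 0.02 for POU2AF1 and 0.00606 for POU2F2. TET2 shares rest on so few reads in OCI-Ly7 that they ranged from 0% to 100%.

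Across all 22 libraries, each line centred on its mean, some pairs of the genes correlated strongly in log2 CPM. CREBBP and ARID1A had a Pearson correlation of 0.94, EP300 and ARID1A 0.90, and KMT2D and EP300 0.81. CHD1 and TET2 had 0.84, with TET2 on very few reads in OCI-Ly7. These libraries share their conditions, batches and scaling, so the values describe the set and carry no test. With the batch difference removed, in OCI-Ly7 alone, they were 0.97, 0.91, 0.79 and 0.87. EZH1 ran against CREBBP, at -0.83, or -0.7 in OCI-Ly7 alone with the batch difference removed. Of 14893 genes, those most like CHD1 were AUTS2 (0.925), ELOVL6 (0.922) and NRP2 (0.913), and AUTS2 was also the most like TET2 (0.88). Most like EZH2 was RBBP7 (0.899), a histone chaperone that is itself a PRC2 component, followed by NDC80 (0.877), a kinetochore gene. Most like DNMT1 were the mitotic kinesin KIFC1 (0.942), LOXL2 (0.908) and BCL6 (0.884), a repressor listed here as a germinal centre marker. Most like KDM1A were CUTC (0.931), ACAA2 (0.924) and SDHAF3 (0.92).

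The partner genes of these regulators were followed through 9 lists with 105 genes in all. In OCI-Ly7, 1 of the 103 tested was called after POU2AF1 knockdown, higher, or 0.971% of the list beside 0.887% of all genes. It was CHD7, another chromodomain remodeller, with a log2 change of 0.57 ± 0.13 (edgeR adjusted p = 0.0411). None of the 103 was called after POU2F2 knockdown. The medians were 0.02 and -0.01, beside 0 over all genes in both comparisons.

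In SUDHL4, 15 of 104 partner genes were called higher and 31 lower after POU2AF1 knockdown, or 44.2% beside 36.8% of all genes, with a median of -0.09 beside 0.01. By list, 1 higher and 4 lower of 9 belonged to PRC2, 0 and 3 of 7 to the histone acetyltransferases, 3 and 6 of 22 to SWI/SNF, 3 and 5 of 13 to the KDM1A and deacetylase complexes, and 1 and 4 of 10 to DNA methylation and its removal. The histone demethylases of other classes had 3 higher and 0 lower of 11. The KMT2 and SETD1 complexes had 2 higher and 4 lower of 14, the CHD remodellers 1 and 1 of 7, and the other chromatin genes mutated in lymphoma 1 and 4 of 11.

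The largest of these SUDHL4 changes were those of KDM5B, a demethylase, at 2.37 ± 0.50, ARID5B, a DNA-binding cofactor, at 1.79 ± 0.16, DNMT3B, a de novo DNA methyltransferase, at -1.62 ± 0.21, and the remodeller CHD2 at 1.58 ± 0.11. NSD2, a histone methyltransferase, followed at -0.86 ± 0.12, then TET1 and RCOR2, a CoREST subunit, both at -0.83, SMARCD3 of SWI/SNF at 0.71, RBBP7 at -0.70 and KDM1B, a relative of KDM1A, at 0.67. Of these 10, ARID5B (edgeR adjusted p = 0.0111) and NSD2 (edgeR adjusted p = 0.0439) were also called in the fit of all libraries; the other 8 were not, with DNMT3B at 0.0535 and RBBP7 at 0.0703.

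After POU2F2 knockdown of SUDHL4, 5 of the 104 were called higher and 2 lower, or 6.73% beside 7.35% of all genes. ARID5B (0.92), CHD2 (0.82) and the PRC2 subunit EED (0.69) were the 3 with the largest rise, followed by BCL7A (0.31) and SETD1B (0.30), and DNMT3B (-0.64) and DPY30 (-0.40) were lower, none of them called in the fit of all libraries (edgeR adjusted p = 1 for each). Between the 2 lines' controls, 10 of 105 were higher in OCI-Ly7 and 9 lower, or 18.1% beside 23.5% of all genes. The PRC2 cofactors JARID2 (2.45) and PHF19 (1.04), with ARID5B (2.26), CHD2 (2.22), BCOR (1.31) and the linker histone H1-2 (2.64), were higher in OCI-Ly7, and RCOR2 (-1.73), BCL7C (-1.71), MBD2 (-1.45) and GSE1 (-0.95) were higher in SUDHL4 (log2 differences, OCI-Ly7 minus SUDHL4, edgeR adjusted p of 0.0266 or less).

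**Figure D4:**
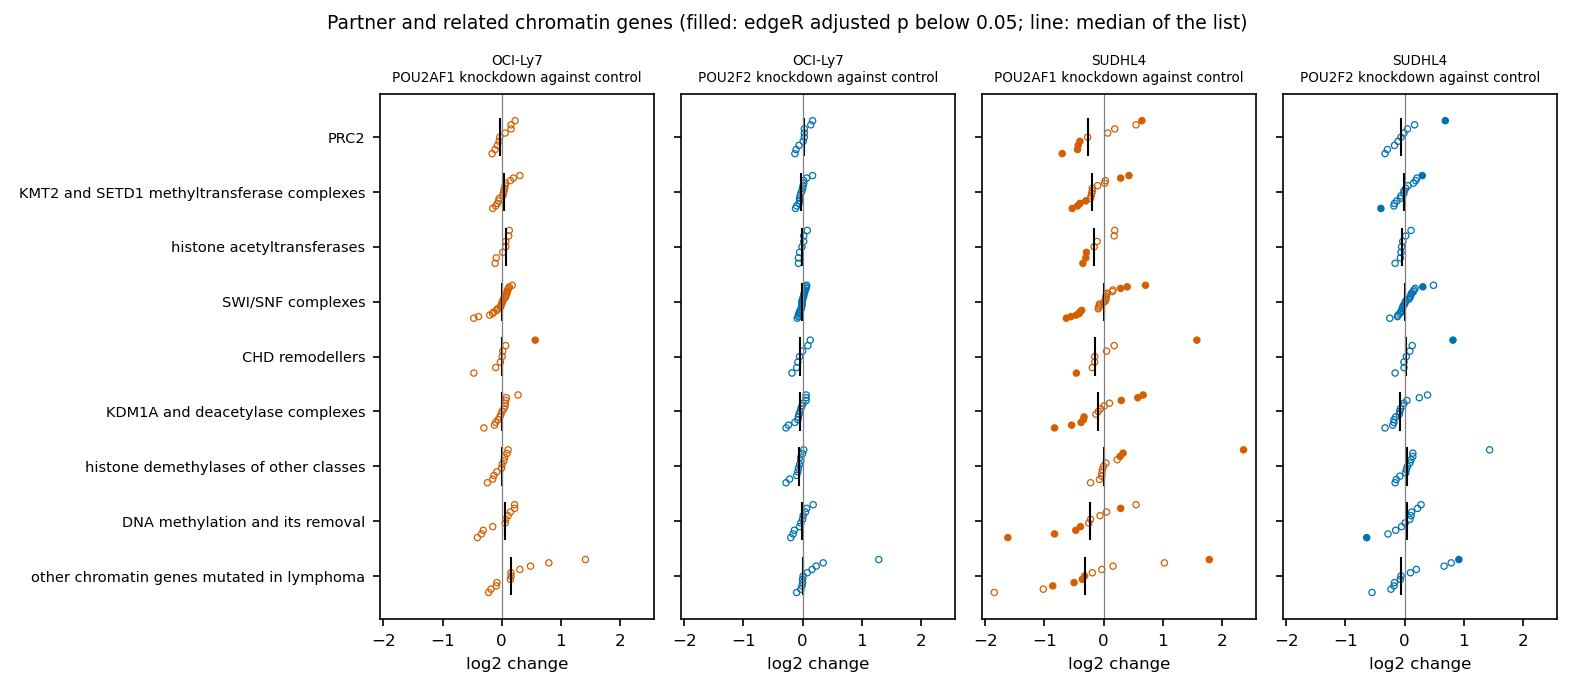
Fitted log2 change (x axis) of the 105 partner and related genes in 9 lists (y axis) against the control of the same line, with 1 point a gene, filled where the edgeR adjusted p was below 0.05, and a black line at the list's median. The OCI-Ly7 panels hold 1 filled point, CHD7 at 0.57, and the SUDHL4 POU2AF1 panel holds 15 that are higher and 31 that are lower.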

How the data were processed

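RNA was sequenced from OCI-Ly7 and SUDHL4 CRISPR interference lines with a stranded, paired-end mRNA kit, per the labels' protocols. The authors trimmed reads with fastp and quantified them with Salmon 1.5.1 on GRCh38.p13, per the submitters' processing notes; the annotation release is not given in the sources used here. Per the file headers, each deposited file gives estimated counts of reads, TPM, length and effective length for 227912 transcripts. Of these, 205964 matched GENCODE release 29 by identifier (58592 genes), and 21948 were left out; the matched ones held 98.4% to 98.9% of the reads. The deposited estimated counts and the deposited TPM were summed per gene, and counts were rounded. Salmon divides reads between transcripts, so shares of a gene are estimates.

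Files of 1 group whose counts differed by about the sampling noise (ratio below 1.5; 1.122 to 1.15 in 3 pairs, 2.395 to 70.444 in 53 others) were merged, and 1 OCI-Ly7 control file that repeated the sum of 2 others (within 2 reads for 92.9% of 26871 genes) was not added again. This left 22 libraries; control replicate 1 of OCI-Ly7 and replicate 1 of the SUDHL4 control and POU2AF1 knockdown are merged. Each line was fitted with edgeR 4.0.16 (TMM scaling; genes kept by filterByExpr at its count setting of 10; quasi-likelihood test, robust; Benjamini-Hochberg adjustment over all genes tested, calls below 0.05), and the OCI-Ly7 model included the batch. All 22 libraries were also fitted together, and OCI-Ly7 with its series marks as blocks (named within series). The coefficient of biological variation was 0.297, 0.0779 in SUDHL4, 0.298 with all libraries and 0.146 within series. Replicate numbers did not pair the OCI-Ly7 libraries: same-numbered libraries of different groups had correlations of -0.37 to 0.51 (median 0.03, 10 pairs). Those of the same block, a series mark or batch 1, had a median of 0.49 (17 pairs, -0.09 to 0.7). Those of different blocks had a median of -0.21 (87 pairs, -0.7 to 0.78). Alternatives included DESeq2 1.42.0, other scaling, counts rebuilt from TPM, no merging and leaving out each library; limma 3.58.1 removed the batch difference for correlations. The OCI-Ly7 test was run on simulated counts with a smaller spread than its fit with the batch term, and no batch or series effect. It was thus not checked at the spread of these data, and the SUDHL4 fit was not simulated.

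The 10 genes and all lists were chosen with earlier results of these data known. Partner genes were named where called, at most the 10 with the largest change in a comparison, and for each called gene the 3 most like it (Pearson correlation of log2 CPM, prior count 2). Promoters come from RefSeq on GRCh38.p14. A further gene of the B cell marker list is not reported here.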

Additional observations from a re-analysis of the deposited data

Results flagged for a closer look

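Within groups of 4 to 10 libraries, 30 sets of values of the 10 genes were searched for a highest or lowest library with a gap to the others too large by Dixon's criterion, which chance meets in about 1 in 20 sets; 5 met it. EZH1 was at 123 CPM in OCI-Ly7 POU2AF1 knockdown replicate 6, where the group's median was 54.0 CPM; this is the group's sole library of series s2. EZH2 was at 165 CPM in OCI-Ly7 control replicate 7 (median 122 CPM) and at 149 CPM in POU2F2 knockdown replicate 1 (median 130 CPM). CHD1 was at 19.5 CPM in the same POU2F2 knockdown replicate 1 (median 9.85 CPM), the sole library of series s1. KDM1A was at 134 CPM in POU2F2 knockdown replicate 3 (median 159 CPM), the sole batch 2 library without a series mark.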

How the results depend on the processing

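The 10 genes were recomputed in each comparison under the alternatives, 1250 values in all, of which 1150 kept their direction or stayed without a call on either sign (77 uncalled values changed sign), 60 lost a call, 39 gained one and 1 called value had the other sign than its uncalled original: CHD1 in SUDHL4 after POU2AF1 knockdown, 0.52 with counts rebuilt from TPM against -0.02. None of the 230 coding share differences was called, in a design with little room for a call, and 29 changed sign.

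Counts of genes called moved more. After OCI-Ly7 POU2AF1 knockdown 142 were called; it was 327 with DESeq2, 572 with every file as a sample, 259 without the batch term, 7 in batch 2, 24 in batch 1, 894 within series, and 8 to 182 without 1 library. After OCI-Ly7 POU2F2 knockdown 0 were called; it was 5 with DESeq2, 13 within series, 1 each with all libraries in one fit, counts rebuilt from TPM, every file a sample or no batch term, and 0 to 1 without 1 library. Between the OCI-Ly7 knockdowns 26 were called; it was 85 with DESeq2, 69 with every file a sample, 322 without the batch term, 4 in batch 2, 201 within series, and 3 to 33 without 1 library. Alternatives chosen after seeing the data were within series with POU2F2 knockdown replicate 3 in batch 1 (1120, 2 and 688 in these 3 comparisons), within series without POU2AF1 knockdown replicate 1 (1692, 135 and 666), and counts rebuilt from TPM without that library (150, 1 and 35). In SUDHL4, POU2AF1 knockdown had 6247 calls, 3398 with DESeq2, 314 in the fit of all libraries and 245 there without either POU2F2 knockdown library. POU2F2 knockdown had 1247, 397 with DESeq2, 433 with counts rebuilt from TPM, 3761 with every file a sample, 18 in the fit of all libraries and 5 to 13 there without 1 library. Between the knockdowns there were 4446, then 2224, 2868, 7154, 37 and 5 to 8. The line differences had 151 (POU2AF1) and 2 (POU2F2) calls, 1945 and 42 within series, and the control comparison 4448 and 8415. Libraries, residual degrees of freedom and the estimated spread differ between some of these fits, and the cause of the moves was not tested.

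With the replicate number as a block in OCI-Ly7, 273 genes were called after POU2AF1 knockdown, CHD1 among them (log2 change 2.12) and TET2 also (3.91, edgeR adjusted p = 0.0354), and 244 between the knockdowns, with CHD1 at -1.31 (edgeR adjusted p = 0.00411) and TET2 at -2.66 (edgeR adjusted p = 0.0208). The numbers pair no libraries there. No paired analysis was possible in SUDHL4 because the merged libraries share fewer than 2 numbers.

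Depth limits TET2 in OCI-Ly7, with 1 to 41 reads a library, and 1 control library limits every SUDHL4 comparison.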
